A study of Mus musculus with 43 samples.

Results

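The Hedgehog pathway genes described here are Gli1, Gli2, Gli3, Ptch1, Smo, Sufu, Hhip, Cdon and Boc, 9 of the 55416 genes counted in every library. They were chosen by name, because Gli1 was already known to have a lower count in oligodendrocytes of Rag2-/- mice, and the question was whether the rest of the pathway followed it. That lower count selected the set, so the genotype values of Gli1 in oligodendrocytes are a description and carry no test, while the other 8 genes, and Gli1 in the other cell types, were tested.

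Hedgehog ligands are secreted proteins that bind the membrane protein Ptch1, which in their absence restrains the membrane protein Smo. Active Smo signals in the primary cilium and releases the GLI transcription factors from Sufu, a cytoplasmic inhibitor. Gli2 is mainly an activator, Gli3 mainly a repressor, and Gli1 an activator that is itself a target of the pathway, as are Ptch1 and the ligand trap Hhip, while Cdon and Boc are co-receptors for the ligands. In the embryonic ventral neural tube the pathway specifies oligodendrocyte precursors, and in the adult cortex Gli1 is known to mark astrocytes that respond to Sonic hedgehog from neurons.

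The cells came from the cortical grey matter of 12 mice aged 3 months, born as 6 littermate pairs of 1 control and 1 Rag2-/- mouse. Rag2-/- mice (B6.Cg-Rag2tm1.1Cgn/J, crossed with C57BL/6J) carry the loss of Rag2 in every cell from conception and make no mature T or B lymphocytes. The immunocompetent controls of pairs 1, 2, 3 and 5 were Rag2+/- and those of pairs 4 and 6 Rag2+/+. Both mice of pairs 1, 3 and 4 were male and both of pairs 2 and 5 female, and in pair 6 the control was male and the Rag2-/- mouse female. Each suspension was passed over antibody-coated plates (immunopanning) that held back microglia (anti-CD45), OPCs (oligodendrocyte precursor cells, anti-PDGFRα), oligodendrocytes (GalC) and astrocytes (HepaCAM) in turn, so each library is 1 cell type of 1 mouse. The 43 libraries were oligodendrocytes of 4 control and 4 Rag2-/- mice (pairs 1, 3, 5 and 6), OPCs of 6 and 5 (no Rag2-/- library of pair 5), astrocytes of 6 and 6 and microglia of 6 and 6.

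Libraries held between 6499417 and 23118497 counts on genes, with a median of 10447042. Mitochondrial genes took 45.8% to 60.1% of these counts in oligodendrocytes, 22.4% to 36.7% in OPCs, 22.5% to 45.1% in astrocytes and 6.75% to 11.7% in microglia, which lowers the CPM (the usual measure that scales a gene's count to the total gene counts of its library) of every other gene most in oligodendrocytes. The markers of each labelled cell type stood highest in its own libraries. The 8 astrocyte markers also reached 10.8% to 22.8% of their astrocyte level in OPC libraries and 2.02% to 7.74% in oligodendrocyte libraries, and the 8 oligodendrocyte markers reached 20.6% to 51.7% of their own level in astrocyte libraries. All libraries of a cell type shared a sequencing lane, so a difference between cell types cannot be told apart from one between lanes.

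In oligodendrocytes Gli1 (ENSMUSG00000025407; chr10:127165751-127177865 of GRCm39, minus strand) was a gene of few counts that nearly vanished from the Rag2-/- libraries. Of its exonic bases, 7.33% overlap Arhgap9 and Gm47200 on the opposite strand, whose reads cannot be told apart from its own without the strand setting of the counting. The control libraries of pairs 1, 3, 5 and 6 held 11, 17, 25 and 47 counts, or 0.870, 1.60, 2.77 and 3.93 CPM. The Rag2-/- libraries of the same pairs held 1, 0, 1 and 3 counts, which is at most 0.2204 CPM. Every Rag2-/- library lay below every control library, and the control level itself spread more than 4-fold between mice. Of the 9 genes, Gli1 in oligodendrocytes was the only case in any cell type in which the genotypes did not overlap, beside 1.35% of the 13802 genes tested in oligodendrocytes whose Rag2-/- CPM all lay below the control CPM; since this contrast chose Gli1, nothing is read from that share. Summed over libraries, the Rag2-/- level was 0.0436 of the control level, with an exact 95% interval of 0.0139 to 0.105 that covers counting error only. Such intervals also left out a ratio of 1 in OPCs (1.05 to 1.72), astrocytes (0.528 to 0.671) and microglia (0.204 to 0.756), where no genotype test of Gli1 passed. In oligodendrocytes the fitted log2 fold change of Gli1 was -4.93 (SE 1.28). It is no bound, since 1 library held no count, and it ranged from -5.69 to -4.40 as single libraries were left out. In these bulk libraries, fewer cells with Gli1 RNA and less Gli1 RNA per cell cannot be told apart.

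**Figure D1:**
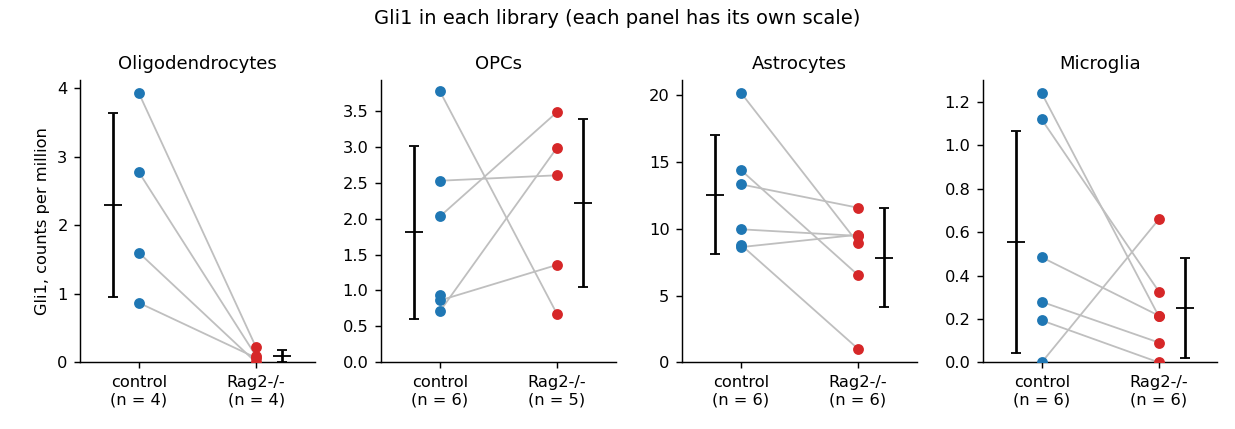
Gli1 in CPM in each library of the 4 cell types, controls in blue and Rag2-/- in red, with a grey line joining littermates and black bars giving mean ± SD. In oligodendrocytes the 4 Rag2-/- libraries lie at 0 to 0.2204 CPM, below all 4 controls, whereas the genotypes overlap in the other panels.

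The RNA of other cells in the oligodendrocyte libraries moved with Gli1 in part. The summed CPM of 8 mural cell markers (pericytes and smooth muscle) was 8.78, 14.5, 48.6 and 67.4 in the controls of pairs 1, 3, 5 and 6 and 8.44, 8.59, 30.0 and 25.2 in their Rag2-/- littermates. It was thus lower in Rag2-/- mice in all 4 pairs, and the 2 controls with the most Gli1 were those with the most mural RNA. Of these 8 markers, 7 had more than 3 counts in at least 1 control library and 6 in at least 1 Rag2-/- library, with Tagln at 0 in the Rag2-/- libraries. The 7 fibroblast markers summed to 1.98 to 13.7 CPM in controls and 0.175 to 6.16 CPM in Rag2-/- libraries, with Lum at 0 in both. The 8 astrocyte markers summed to 952 to 1952 CPM in controls and 1021 to 1530 CPM in Rag2-/- libraries and were higher in the Rag2-/- library in 3 of 4 pairs. The part of mural and fibroblast RNA in the Gli1 difference was not tested.

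No loss like that of Gli1 was detected in the other 8 genes in oligodendrocytes. None of the 8 was called by edgeR (adjusted p under 0.05), in a comparison that called 0% of 13802 genes, and none had an unadjusted p under 0.05, against 467 genes in all. DESeq2, which called 0.695% of the 29204 genes it tested there, called none of the 8 either. Their fitted log2 fold changes (Rag2-/- over control) ran from -0.20 for Boc to 0.95 for Smo, with a median of 0.48 beside 0.0031 over all genes.

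The targets of the pathway had enough counts in oligodendrocytes for a closer look. Ptch1, the receptor and target, stood at 46.3, 50.6, 20.6 and 57.2 CPM in the controls of pairs 1, 3, 5 and 6 and at 62.7, 39.7, 38.7 and 18.4 CPM in their Rag2-/- littermates. Its mean was 43.7 ± 15.99 CPM (SD, n = 4) in controls and 39.9 ± 18.1 CPM (SD, n = 4) in Rag2-/- mice, and it was lower in Rag2-/- in 2 pairs and higher in the other 2. The log2 fold change was 0.10 (SE 0.35, edgeR adjusted p = 0.998), with a sign opposite to that of the means. Hhip, which binds and sequesters the ligands, stood at 47.3, 45.5, 19.9 and 10.1 CPM in controls and at 51.0, 37.9, 30.7 and 29.0 CPM in Rag2-/- mice. Hhip was thus higher in Rag2-/- in 3 of 4 pairs, with a log2 fold change of 0.48 (SE 0.40, adjusted p = 0.998) that stayed between 0.25 and 0.71 under all alternatives. A loss of the size of that of Gli1 was therefore present in neither Ptch1 nor Hhip, whose groups overlapped.

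The co-receptors and the other GLI genes of oligodendrocytes were less well measured. Cdon held 57 to 68 counts in the 4 controls (5.37 to 6.77 CPM) and 39 to 165 in Rag2-/- libraries (2.87 to 11.1 CPM), with a log2 fold change of 0.48 (SE 0.58). Boc ranged from 2.17 to 16.3 CPM in controls and from 0.614 to 12.9 CPM in Rag2-/- libraries, a log2 fold change of -0.20 (SE 1.00). Both genes overlapped widely between genotypes. Gli2 held 6 to 30 counts in controls and 1 to 102 in Rag2-/- libraries, and Gli3 held 4 to 63 and 17 to 52, with log2 fold changes of 0.85 (SE 1.32) and 0.30 (SE 1.02). The mean CPM of Gli3 ran the other way, at 2.81 in controls and 2.25 in Rag2-/- mice. With standard errors above 1 on the log2 scale, neither gene could show a change of less than several-fold.

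Smo and Sufu, which act between receptor and GLI factors, were present in some oligodendrocyte libraries and almost absent from others. Smo held 21, 66, 2 and 44 counts in the controls of pairs 1, 3, 5 and 6 and 97, 4, 1 and 117 in their Rag2-/- littermates. Sufu held 43, 30, 23 and 5 counts in controls and 269, 133, 0 and 5 in Rag2-/- libraries. The genotypes overlapped for both genes, and 1 library, Rag2-/- of pair 1, held 53.0% of all Sufu counts in oligodendrocytes. The log2 fold changes were 0.95 (SE 1.65) for Smo and 0.78 (SE 1.47) for Sufu, both smaller than their standard errors.

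**Figure D2:**
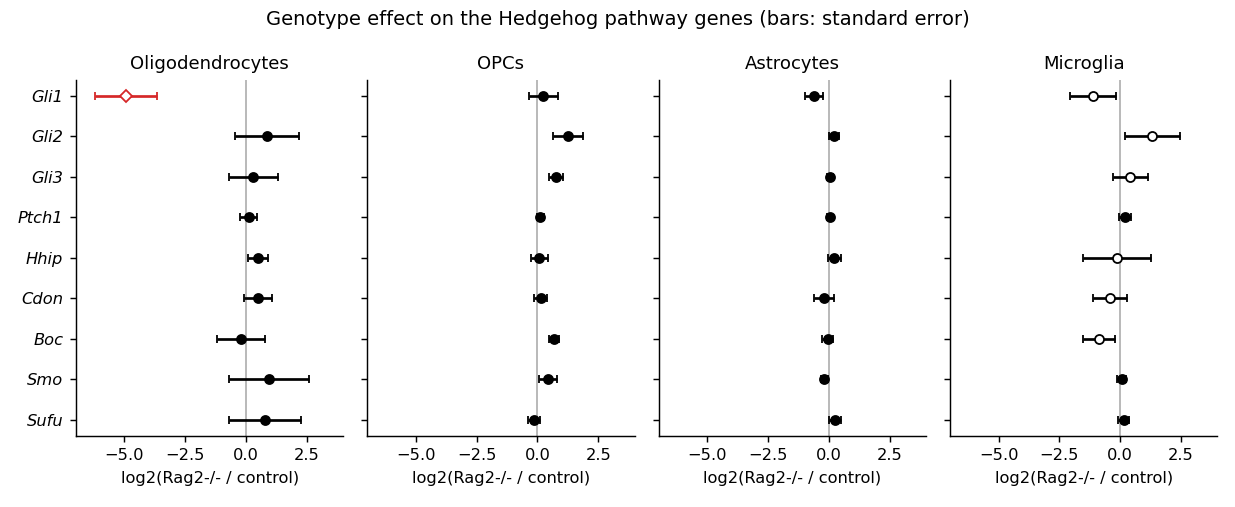
Log2 fold change of Rag2-/- over control libraries (horizontal axis, bars giving the SE) for the 9 genes in each cell type. The red diamond is Gli1 in oligodendrocytes (-4.93), given without a test; open circles in microglia are genes with too few counts to pass the filter. All other points lie between -1.11 and 1.32, and none passed the edgeR threshold.

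A joint fit of all 43 libraries set the log2 fold change between genotypes in oligodendrocytes against the average of those in OPCs, astrocytes and microglia. It had no block for the mouse, although each mouse gave several libraries, and used 1 estimate of spread per gene for all cell types. Of all genes, 17.5% had an unadjusted p under 0.05 in it, against 3.38% within oligodendrocytes, so its p-values may be too small. None of the 8 genes other than Gli1 was called, where 2.22% of 21368 genes were, and none had an unadjusted p under 0.05. Differences ran from -0.26 (SE 0.51) for Gli3 to 0.99 (SE 0.72) for Sufu on the log2 scale. Without the control library of pair 5 the difference for Sufu was 2.63 with an edgeR adjusted p of 0.0125, in a fit that called 1.27% of genes, so the outcome for Sufu turned on that 1 library. For Gli1 the same contrast was -4.29 (SE 1.03), given as a description since it contains the contrast that chose the gene.

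In OPCs, edgeR called none of the 9 genes, in a comparison that called 0.00592% of 16882 genes, and DESeq2, which called 0.0149% there, called none either. Gli1 did not show its oligodendrocyte pattern in these cells. Control OPC libraries held 8 to 38 Gli1 counts, with a median of 1.49 CPM, and the Rag2-/- libraries of pairs 1, 2, 3, 4 and 6 held 45, 32, 19, 7 and 69 counts. Gli1 was higher in the Rag2-/- littermate in 4 of 5 pairs, with a log2 fold change of 0.24 (SE 0.61, edgeR adjusted p = 1.00). That value changed sign without the Rag2-/- library of pair 1 (-0.090) or the control library of pair 5 (-0.0088).

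Boc, Gli3 and Gli2 had the largest differences in OPCs, all toward higher values in Rag2-/- mice, and Boc and Gli3 had an unadjusted p under 0.05, as 679 genes (4.02%) did. Boc stood at 7.84 to 14.8 CPM in the 6 controls (median 9.73) and at 14.2, 12.6, 18.7, 12.9 and 19.3 CPM in the Rag2-/- libraries of pairs 1, 2, 3, 4 and 6. It was higher in the Rag2-/- littermate in 5 of 5 pairs, although the control of pair 5, which has no Rag2-/- partner, overlapped the Rag2-/- range. Its log2 fold change was 0.68 (SE 0.22), with an unadjusted p of 0.00675 and an edgeR adjusted p of 1.00, which is past no threshold, and it remained between 0.56 and 0.78 under all alternatives.

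Gli3 in OPCs stood at 9.74 to 26.99 CPM in controls (median 17.98) and at 45.5, 37.0, 12.3, 29.4 and 24.4 CPM in the Rag2-/- libraries of pairs 1, 2, 3, 4 and 6. Its log2 fold change was 0.76 (SE 0.30, edgeR adjusted p = 1.00). Gli2 stood at 0.105 to 12.8 CPM in controls (median 5.18) and at 20.3, 10.3, 5.35, 15.8 and 14.3 CPM in the same Rag2-/- libraries, a log2 fold change of 1.26 (SE 0.63, edgeR adjusted p = 1.00). Both genes were higher in Rag2-/- in 4 of 5 pairs, and the genotypes overlapped. Without the filter on low counts Gli2 was called, with an adjusted p of 0.0457 in a fit that called 0.266% of genes.

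Astrocyte RNA moved with Gli2 and Gli3 in part in the Rag2-/- OPC libraries. The summed CPM of the 8 astrocyte markers, all 8 of them detected, was 3052 to 3871 in control OPC libraries and 8142, 5003, 2968, 4519 and 3666 in the Rag2-/- libraries of pairs 1, 2, 3, 4 and 6. The Rag2-/- library of pair 1 was the highest in Gli2, Gli3 and the astrocyte markers, and that of pair 3 the lowest of the 5 Rag2-/- libraries in all of them. That of pair 2 was next to the highest in the markers but had less Gli2 than those of pairs 4 and 6. Over the control range of the markers, Gli2 ran from 0.105 to 12.8 CPM and Gli3 from 9.74 to 26.99 CPM. Mural markers also ran higher, at 142 to 505 CPM in Rag2-/- against 108 to 319 CPM in control OPC libraries, and the 8 endothelial markers summed to 36.0 to 154 CPM in Rag2-/- against 34.8 to 77.4 CPM in control libraries, again highest in pair 1 and lowest in pair 3 among the Rag2-/- libraries. The part of astrocyte, mural and endothelial RNA in the Gli2 and Gli3 differences was not tested.

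**Figure D3:**
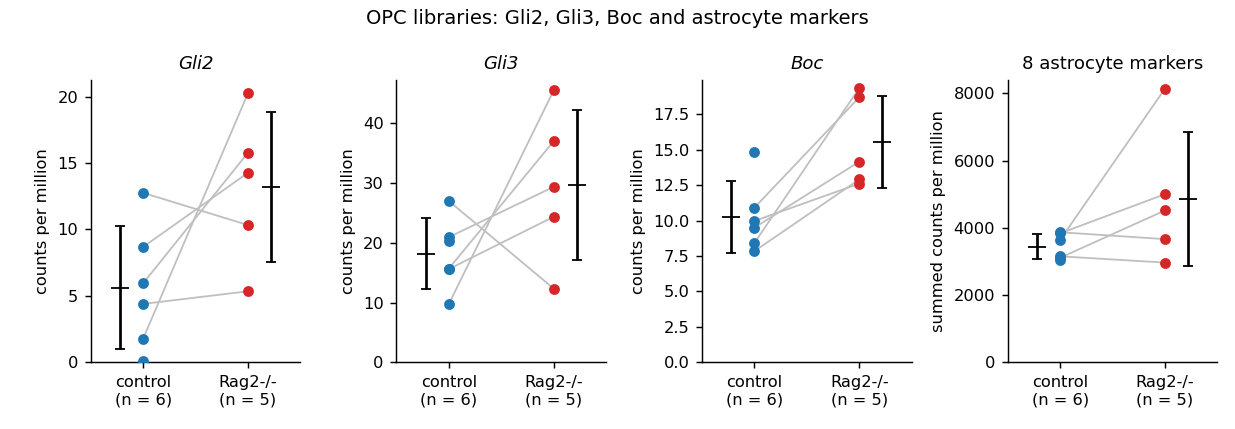
Gli2, Gli3, Boc and the sum of 8 astrocyte markers in CPM in each OPC library, controls in blue (n = 6) and Rag2-/- in red (n = 5), with a grey line joining littermates and black bars giving mean ± SD. The Rag2-/- library of pair 1 is highest for Gli2 (20.3), Gli3 (45.5) and the markers (8142), while for Boc it is at 14.2 and 2 other Rag2-/- libraries are above it.

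The remaining genes of OPCs differed little between genotypes. Ptch1 was at 113 ± 24.6 CPM (SD, n = 6) in controls and 115 ± 32.1 CPM (SD, n = 5) in Rag2-/- mice, with a log2 fold change of 0.11 (SE 0.15). Hhip (0.074, SE 0.35), Cdon (0.13, SE 0.26), Smo (0.45, SE 0.37) and Sufu (-0.14, SE 0.26) were likewise within 2 standard errors of 0.

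In astrocytes, the cells with the highest Gli1, edgeR called none of the 9 genes where it called 0.00679% of 14725 genes, DESeq2 called none where it called 0.003% of genes, and none of the 9 had an unadjusted p under 0.05. Gli1 held 65 to 206 counts in controls (8.63 to 20.2 CPM, median 11.7) and 11 to 108 in Rag2-/- libraries (1.03 to 11.6 CPM, median 9.20). It was lower in the Rag2-/- littermate in 5 of 6 pairs, and the groups overlapped. The log2 fold change was -0.60 (SE 0.38, edgeR adjusted p = 1.00), and -0.27 without the Rag2-/- library of pair 1. That library had 11 Gli1 counts and was also the lowest of the 12 astrocyte libraries in Gli2 (25.4 CPM), Gli3 (105.5 CPM), Smo (16.9 CPM) and Boc (9.60 CPM). It had the fewest genes with a count (20249) of the 12, and 43.7% of its counts were mitochondrial. Its astrocyte markers, at 18160 CPM, were within the range of the others. Ptch1 (log2 fold change 0.048, SE 0.10), Gli3 (0.049, SE 0.11) and Smo (-0.18, SE 0.15) were measured closely enough in astrocytes that their fitted changes and 2 standard errors stayed within 1.5-fold. Gli2, Hhip, Sufu, Cdon and Boc had log2 fold changes from -0.19 to 0.25 with SEs from 0.22 to 0.41.

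In microglia 3 of the 9 genes, Ptch1, Smo and Sufu, passed the filter on low counts, and none was called, where edgeR called 0.00667% of 15003 genes; DESeq2 called 0.00916% of genes and none of the 9. Their log2 fold changes were 0.21 (SE 0.25), 0.067 (SE 0.19) and 0.15 (SE 0.23), and none had an unadjusted p under 0.05. Gli1, at 0 to 17 counts in controls and 0 to 6 in Rag2-/- libraries, was at or under 3 counts in 7 of 12 libraries. It was lower in the Rag2-/- littermate in 5 of 6 pairs, and the groups overlapped. The control libraries summed to 35 Gli1 counts and the Rag2-/- libraries to 15. A fit that kept genes of low count gave Gli1 a log2 value of -1.11 (SE 0.94, edgeR adjusted p = 0.925). So few counts cannot decide whether Gli1 changed in microglia.

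Across cell types, the Hedgehog pathway genes did not share 1 order of levels. By mean CPM over both genotypes, Gli1, Gli2, Gli3, Ptch1, Smo and Boc stood highest in astrocytes, Sufu and Cdon in OPCs and Hhip in oligodendrocytes. TMM scaling moved the highest cell type to astrocytes for Sufu and to oligodendrocytes for Cdon, while for the other 7 genes neither it nor leaving out mitochondrial genes changed the highest cell type.

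**Figure D4:**
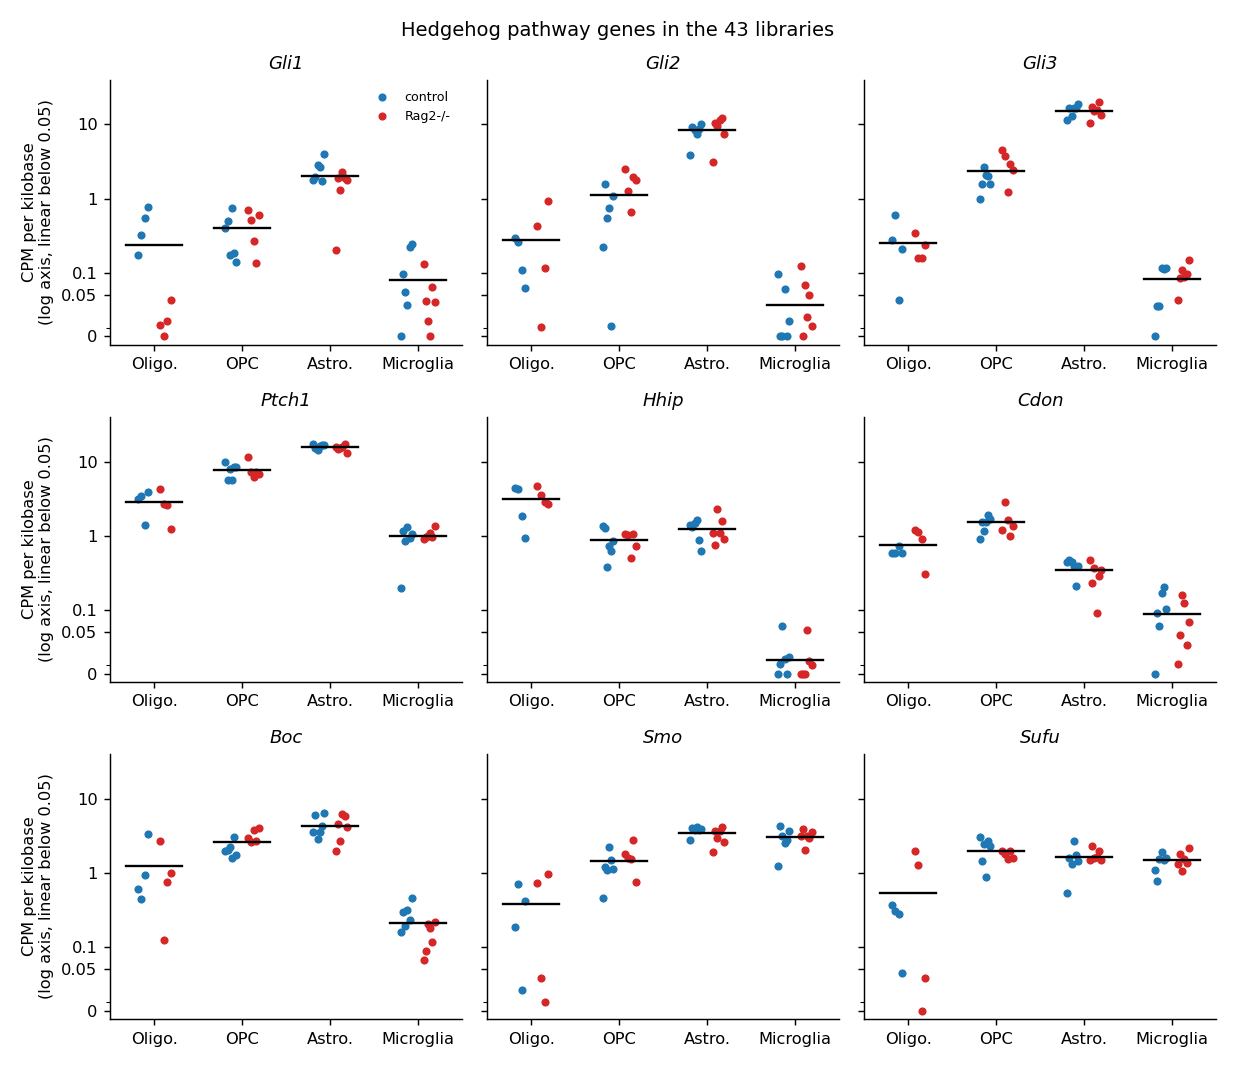
CPM per kilobase of exonic length (vertical axis, logarithmic above 0.05 and linear below) of the 9 genes in each library of the 4 cell types, controls in blue and Rag2-/- in red, with the mean over both as a black line. Gli3 and Ptch1 reach 15.4 and 15.7 CPM per kilobase in astrocytes, and 7 of the genes fall to 0.978 or less in microglia, where Smo (3.02) and Sufu (1.47) do not.

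The GLI factors were the most concentrated in astrocytes. Gli3 had a mean of 154 ± 27.99 CPM (SD, n = 12) in astrocytes, 23.4 ± 10.8 (n = 11) in OPCs, 2.53 ± 1.64 (n = 8) in oligodendrocytes and 0.826 ± 0.437 (n = 12) in microglia, and all neighbours in this order differed by edgeR with the mouse as a block. Gli2 followed with 68.5, 9.06, 2.22 and 0.304 CPM, and Gli1 with 10.2, 1.99, 1.19 and 0.402 CPM. In control mice alone, the mean of Gli1 was 2.29 CPM in oligodendrocytes and 1.81 CPM in OPCs. The fitted log2 difference there was 1.34, the reverse of the order over both genotypes, and did not pass the test (edgeR adjusted p = 0.166). For Gli2 the step from OPCs to oligodendrocytes did not pass the test (edgeR adjusted p = 0.233). The oligodendrocyte values of Gli1 in both genotypes are part of the contrast that chose it. For Gli1 that step is therefore a description, also in control mice alone. Per kilobase of exonic length, the astrocyte level of Gli3 was 15.4 CPM, that of Gli2 8.49 and that of Gli1 2.03, so Gli1 was the lowest of the family even in the cells that held most of it.

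Per kilobase of exonic length, Ptch1 was the highest of the 9 genes in OPCs (7.7 CPM) and near Gli3 in astrocytes (15.7 and 15.4 CPM). In oligodendrocytes it was below Hhip (2.84 and 3.16 CPM per kilobase). Ptch1 kept a larger share outside astrocytes than the GLI factors did. It stood at 231 ± 17.3 CPM (SD, n = 12) in astrocytes, 114 ± 26.7 (n = 11) in OPCs, 41.8 ± 15.9 (n = 8) in oligodendrocytes and 14.4 ± 4.27 (n = 12) in microglia. The step from OPCs to oligodendrocytes had a log2 difference of 0.42 (SE 0.19, edgeR adjusted p = 0.0814), and it was 0.86 with an adjusted p of 0.000877 when library sizes left out mitochondrial genes. The other steps differed under the edgeR test.

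Ptch1 is also the gene in which the letters of the GLI binding motif could be shown near a start site. The motif searched was GACCACCCA, on both strands, from 2000 bases before to 500 bases after the annotated start of 21770 protein-coding genes of GRCm39, and 2.10% of these windows held it. The outcome was kept for the 7 members that have a RefSeq promoter entry. Of these 7, Ptch1 alone held it, 125 bases after its annotated start, in the 5′ untranslated region in exon 1 of the transcript Ptch1-205. Gli1 and Boc have no such entry, so their windows were scanned only as part of all genes. Whether they hold the motif is not known here. In the 300-base promoters of RefSeq (GRCm38.p6) 0 of the 7 members and 0.253% of all 32851 entries held it. The site in Ptch1 lies at chr13:63721269-63721297 of GRCm39 and is given on the strand of the gene, with the motif in capitals; a match of letters is a description and not evidence of binding.
Ptch1: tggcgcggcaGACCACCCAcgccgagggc

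Hhip and Cdon were both higher in oligodendrocytes than in astrocytes. Hhip stood at 33.9 ± 14.2 CPM (SD, n = 8) in oligodendrocytes, 13.4 ± 4.94 (n = 12) in astrocytes, 9.31 ± 3.33 (n = 11) in OPCs and 0.170 ± 0.225 (n = 12) in microglia, where 10 of 12 libraries held 3 counts or fewer. Oligodendrocytes exceeded OPCs by 2.88 (SE 0.33) and astrocytes by 2.00 (SE 0.30) on the log2 scale, with edgeR adjusted p of 6.74e-09 and 8.38e-07. Hhip was the only one of the 9 genes called higher in oligodendrocytes than in OPCs. Its astrocyte level was 39.4% of its oligodendrocyte level, inside the 20.6% to 51.7% (median 37.1%) that the 8 oligodendrocyte markers reached in astrocyte libraries, and the part of oligodendrocyte RNA in it was not tested. Cdon stood at 14.1 ± 4.93 CPM in OPCs, 6.98 ± 2.82 in oligodendrocytes, 3.22 ± 1.11 in astrocytes and 0.825 ± 0.592 in microglia, and OPCs and oligodendrocytes did not differ for Cdon after TMM scaling (log2 difference -0.099, SE 0.38, adjusted p = 0.862). Its relative Boc, with 21.2 ± 7.35 CPM in astrocytes, 12.7 ± 3.87 in OPCs, 6.00 ± 5.56 in oligodendrocytes and 1.03 ± 0.534 in microglia, had the opposite order between astrocytes and OPCs. OPCs were above astrocytes for Cdon by 1.65 (SE 0.33, adjusted p = 9.97e-05) and below them for Boc by 1.07 (SE 0.31, adjusted p = 0.00574) on the log2 scale.

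Smo and Sufu, which act downstream of Ptch1, had fitted log2 differences between astrocytes and microglia of 0.57 and 0.45, beside 5.18 to 8.26 for the GLI genes. Smo was at 30.6 ± 6.37 CPM in astrocytes and 26.7 ± 7.20 in microglia, which did not differ (log2 difference 0.57, SE 0.33, adjusted p = 0.120; 0.0477 with library sizes that left out mitochondrial genes), and at 12.9 ± 5.72 in OPCs and 3.41 ± 3.34 in oligodendrocytes. Microglia thus held Smo, but Gli2 at 0.304 CPM and Gli3 at 0.826 CPM, the factors on which Smo acts in the canonical pathway, were close to 0 there. Sufu was at 18.2 ± 5.61 CPM in OPCs, 15.3 ± 4.87 in astrocytes, 13.6 ± 3.51 in microglia and 4.90 ± 6.48 in oligodendrocytes, and no neighbours in this order differed, although oligodendrocytes were below OPCs (log2 difference -1.32, SE 0.50, adjusted p = 0.0345) and, with DESeq2, below microglia (adjusted p = 0.0136).

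The 6 tests between pairs of cell types can be read against all 19209 genes in that fit. Oligodendrocytes differed from astrocytes in 9 of 9 genes (7 lower, 2 higher) where 48.6% of all genes were called, and OPCs differed from astrocytes in 8 of 9 (7 lower, 1 higher) where 43.1% were. Over all genes the same tests gave 4557 lower and 4783 higher calls, and 3426 lower and 4862 higher calls. Oligodendrocytes differed from OPCs in 3 of 9 (Gli3 and Sufu lower, Hhip higher) where 38.5% of all genes were called. Against microglia, 8 of 9 genes were called in oligodendrocytes, 8 of 9 in OPCs and 7 of 9 in astrocytes, where 67.9%, 71.3% and 72% of all genes were called, so these shares are near the background. The counts for oligodendrocytes take in Gli1, whose values there, in both genotypes, are part of the contrast that chose it. Its calls in oligodendrocytes are therefore a description, also those against astrocytes and microglia in control mice alone. Library sizes without mitochondrial genes moved the median log2 difference of all genes between oligodendrocytes and OPCs from -0.26 to -0.70 and the calls from 2868 higher and 4518 lower to 1681 and 8183, and they moved the median between OPCs and astrocytes from 0.13 to 0.40 and the calls from 4862 higher and 3426 lower to 7054 and 2414. Between OPCs and microglia they moved the median from 0.18 to 0.61 and the calls from 7640 higher and 6063 lower to 9441 and 4429. Under this scaling Ptch1 and Smo were also called lower in oligodendrocytes than in OPCs (adjusted p = 0.000877 and 0.0158), and Hhip no longer differed between OPCs and astrocytes (adjusted p = 0.0861) nor Smo between OPCs and microglia (adjusted p = 0.0508).

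The levels outside astrocytes can be set beside the astrocyte markers found in the same libraries. In OPC libraries Gli1, Gli2 and Gli3 stood at 19.5%, 13.2% and 15.2% of their astrocyte level, inside the range of the 8 astrocyte markers there (10.8% to 22.8%, median 14.7%). Ptch1 at 49.4%, Smo at 42.1%, Boc at 59.8% and Hhip at 69.7% lay above that range. In oligodendrocyte libraries, Gli2 at 3.24% lay inside the range of the markers (2.02% to 7.74%, median 3.17%), Gli3 at 1.64% below it, and Gli1 at 11.7% above it. The oligodendrocyte share of Gli1 came from the controls, since the mean was 2.29 CPM in them and 0.0951 CPM in Rag2-/- libraries. How much of the GLI counts in OPC and oligodendrocyte libraries came from astrocytes was not tested.

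**Figure D5:**
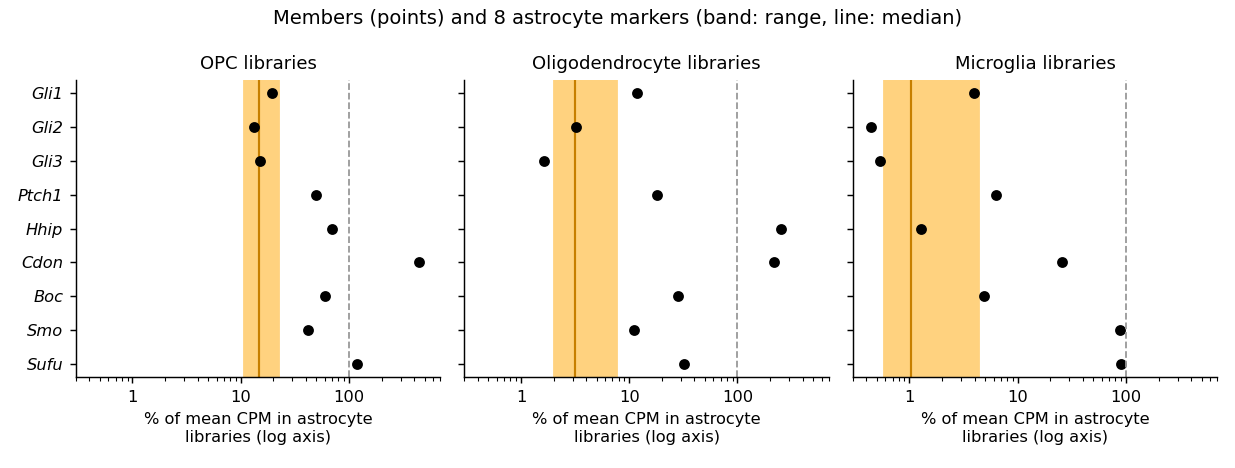
Mean CPM of each gene in OPC, oligodendrocyte and microglia libraries as a percentage of its mean in astrocyte libraries (logarithmic axis, dashed line at 100%), beside the range (band) and median (line) of 8 astrocyte markers in the same libraries. In OPC libraries Gli1, Gli2 and Gli3 lie in the band of 10.8% to 22.8%, and in oligodendrocyte libraries Hhip reaches 254% and Cdon 217%.

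The 38 other pathway genes that were examined were likewise chosen with earlier results known. In oligodendrocytes 27 of them passed the filter, and edgeR called 0 higher and 0 lower between genotypes. Their median log2 fold change was 0.12, and 2 had an unadjusted p under 0.05, beside 3.38% of all genes. The lowest values, picked out after they were seen, were -2.64 (SE 1.39) for Kif7, a ciliary regulator of GLI proteins, -1.66 (SE 0.59) for Ift172 and -1.45 (SE 0.79) for Ift88, both of intraflagellar transport. The highest values were not picked out in this way, and the transducer Ulk3 went the other way, as given below. The median was 0.12 for the 13 transducers, Kif7 among them, and -0.26 for the 6 cilium genes. In OPCs (31 tested), astrocytes (27) and microglia (23), 0 were likewise called between genotypes. The ligand Shh was found in OPCs, with a mean of 2.81 ± 0.877 CPM (SD, n = 11) and at least 9 counts in every library, while in the other cell types 28 of 32 libraries held 3 counts or fewer. In OPCs its log2 fold change between genotypes was 0.66 (SE 0.42, adjusted p = 1.00). Ihh and Dhh had means of at most 1.14 CPM in all cell types, and 94 of the 98 Dhh counts of oligodendrocytes lay in 1 control library.

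Among genes that release or receive the ligand, Disp2, of the Dispatched family, had a mean of 133 CPM in OPCs and 36.8 CPM in oligodendrocytes, and Disp1, which exports the ligands, was at 3.49 to 15.2 CPM over the cell types. The co-receptor Gas1 was at 28.5 CPM in OPCs and 24.2 CPM in astrocytes. By CPM, which is not scaled to gene length, the highest transducers were the kinases Csnk1a1 (99.3 CPM in oligodendrocytes to 236 CPM in microglia) and Gsk3b (107 to 227 CPM). The highest cilium genes by CPM were the motor subunits Kif3a (129.5 CPM in OPCs) and Dync2h1 (56.0 CPM in OPCs). Among reported targets, the cyclins Ccnd1 and Ccnd2 had log2 fold changes of 0.72 (SE 0.53) and 0.23 (SE 0.41) in oligodendrocytes, so neither passed the test.

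In the joint fit 1 of 34 tested pathway genes was called lower in oligodendrocytes and 1 higher, where 2.22% of all genes were called. That fit had no block for the mouse, and with one it called 100 genes in place of 474, so its p-values may be too small. Ift172, a subunit of the intraflagellar transport complex that builds cilia, held 12.9, 21, 20.1 and 22.9 CPM in the control oligodendrocytes of pairs 1, 3, 5 and 6 and 4.62, 9.99, 1.49 and 8.45 CPM in their Rag2-/- littermates, without overlap, beside 1.35% of all genes tested in oligodendrocytes that were lower without overlap. Its genotype effect was lower than in the other cell types by 1.87 (SE 0.39, edgeR adjusted p = 0.00789) on the log2 scale, and within oligodendrocytes alone it was -1.66 (SE 0.59, adjusted p = 0.998). The joint call was lost without the control library of pair 5 (adjusted p = 0.0560). Ulk3, a kinase that acts on GLI proteins, went the other way, with 0.555 to 2.54 CPM in controls and 2.98 to 12.4 CPM in Rag2-/- oligodendrocytes. These groups did not overlap, beside 0.616% of all genes tested in oligodendrocytes that were higher without overlap. The difference of Ulk3 in the joint fit was 2.23 (SE 0.59, edgeR adjusted p = 0.0341). The call of Ulk3 was lost with the mouse as a block (adjusted p = 0.149), without the filter (0.0514), and without the control library of pair 5 or 6 or the Rag2-/- library of pair 1 or 6 (0.0526 to 0.241).

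Sex (female against male, in the same fits) moved none of the members that passed the filter (3 in microglia and all 9 elsewhere) past the edgeR threshold, and none had an unadjusted p under 0.05. The tests of sex called 0.0362% of genes for oligodendrocytes, 0.0296% for OPCs, 0.0407% for astrocytes and 0.0467% for microglia.

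The genes whose log2 CPM followed each member most closely over the 43 libraries differed from member to member. Gli3 went with Slc27a1 and Ntsr2 (Pearson r of 0.974 and 0.972), Gli2 most like Rpe65, Atp13a4 and Pdk4 (0.941 to 0.928), Gli1 most like Slc25a35, Aox1 and Pygm (0.890 to 0.860), and Ptch1 most like Mfap3l, Htra1 and Psph (0.972 to 0.968). Hhip followed Ttll7, Nfasc and Tnfaip6 (0.977 to 0.970), Cdon followed Pllp, Dscaml1 and Dock9 (0.938 to 0.923), and Boc followed an unnamed gene (ENSMUSG00000085133), Ppargc1a and Wwc1 (0.937 to 0.935). Smo went with Rhbdd1, Slc13a3 and Kctd5 (0.916 to 0.899) and Sufu with Dnajc1, Smox and Mfap3 (0.909 to 0.898). Among the members themselves r was highest between Gli3 and Ptch1 (0.960) and lowest between Smo and Hhip (-0.426). These values describe libraries that share cell type, lane and depth.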

How the data were processed

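Glia were immunopanned from mouse cortex, and RNA was amplified with the Ovation RNAseq V2 kit before sequencing. The authors aligned reads with STAR 2.7.8a to GRCm39 (Ensembl 104) and deposited whole-number read counts per gene from HTSeq, whose strand setting is not given in the sources used here, so reads of genes that overlap on opposite strands cannot be told apart. Reads assigned to no gene, 33.5% to 52.0% of the reads in the files, were left out. Gene names came from GENCODE M39 and matched 54749 of 55416 identifiers.

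Counts were tested with edgeR 4.0.16 (quasi-likelihood, TMM scaling, Benjamini-Hochberg adjustment over all genes tested) in R 4.3.3, on genes passing a minimum count of 10 and a total of 15, with adjusted p under 0.05 as the threshold. Genotype was fitted within each cell type with sex as a covariate. Cell types were compared over all 43 libraries with the mouse as a block. The joint fit of genotype over cell types had sex within cell type as a covariate and no block for the mouse. DESeq2 1.42.0, other scalings, no filter, subsets of controls and single libraries left out were the alternatives. The fits were tested on simulated data with 200 changed genes. CPM was computed from a gene's count and the total gene counts of its library.

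The members, the marker lists and the pathway list were chosen with earlier results of these data known. Members were named by the rule that selected them, and pathway genes were named if called, if ligands, or as the pair with the highest mean CPM of each list. Kif7 and Ift88 fall under none of these rules and were named for low values in oligodendrocytes after those were seen. Some genes that these rules name are not reported here. Same-numbered libraries came from littermates, as the study describes, and their deviations from group means had a mean correlation of 0.078 to 0.119 per cell type, against -0.0304 to -0.0154 for other pairs. Each library is a separate mouse within its cell type. Intervals cover counting error only.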

Additional observations from a re-analysis of the deposited data

Results flagged for a closer look

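Of 72 groups of 4 to 6 libraries (9 genes, 4 cell types, 2 genotypes), 7 held 1 library far from the others by Dixon's criterion at 95%, where chance gives about 1 in 20 groups. In OPCs, Ptch1 was 172 CPM in the Rag2-/- library of pair 1, above the other 4 (90.5 to 107), and this is also the library with the most astrocyte marker RNA (8142 CPM). In control astrocytes, Smo was 24.2 CPM in pair 1, below the other 5 (33.8 to 36.3), and Cdon was 1.95 CPM in pair 5, below the other 5 (3.61 to 4.45). In control oligodendrocytes, Boc was 16.3 CPM in pair 6, above the other 3 (2.17 to 4.55), and Cdon was 6.77 CPM in pair 5, above the other 3 (5.37 to 5.43). In microglia, Hhip was 0.651 CPM in the control of pair 3 and 0.582 CPM in the Rag2-/- library of pair 4, which are 7 and 6 counts.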

How the results depend on the processing

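Gli1 in oligodendrocytes stayed between -5.69 and -4.40 on the log2 scale under every alternative that gave it a value, and with the littermate pair as a replicate block it was -4.49; without the control library of pair 6, or with heterozygous controls alone, it did not pass the filter and has no value. No alternative called another member for genotype in oligodendrocytes, astrocytes or microglia, and in OPCs leaving out the filter called 1 (Gli2). Spread between libraries limits Gli2, Gli3, Smo, Sufu and Boc in oligodendrocytes (SE of 1.00 to 1.65), and 6 members in microglia had too few counts to pass the filter.

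Genes called for genotype without the filter and by DESeq2 were 14 and 203 in oligodendrocytes (0 as reported), 90 and 5 in OPCs (1), and 9 and 3 in microglia (1), and without the filter 30 in astrocytes (1). Genes called for sex were 99 and 434 in oligodendrocytes (5), 72 and 13 in OPCs (5), 118 and 18 in astrocytes (6), and 25 and 11 in microglia (7). The joint fit called 958 genes without the filter and 100 with the mouse as a replicate block (474). Between oligodendrocytes and OPCs, library sizes without mitochondrial genes called 5 members (3), and control mice alone called 4768 genes (7386).

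Signs that changed were as follows. With the littermate pair as a replicate block, oligodendrocyte Ptch1 was -0.11 and Smo -0.10; this block changed no call of a member. With heterozygous controls alone, oligodendrocyte Sufu was -0.071 and Boc 0.87, and astrocyte Boc 0.10. Between oligodendrocytes and OPCs, control mice alone gave Gli1 1.34, Cdon -0.012 and Boc 0.11, library sizes without mitochondrial genes gave Cdon -0.34, and no replicate block gave Boc 0.060. Sufu between OPCs and astrocytes was 0.11 without mitochondrial genes. In the joint fit, Ptch1 was -0.031 with DESeq2 size factors, -0.040 without the filter and -0.29 with the mouse as a replicate block, which gave Boc 0.027. The causes were not tested.

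Leaving out single libraries gave these ranges. In oligodendrocytes Gli2 ran from -0.65 to 1.69, Gli3 from -0.47 to 1.00, Ptch1 from -0.10 to 0.37, Smo from -0.34 to 2.30, Sufu from -0.071 to 2.77 and Boc from -1.93 to 0.87. In OPCs Gli1 ran from -0.090 to 0.68, Ptch1 from -0.0090 to 0.21, Hhip from -0.10 to 0.30 and Cdon from -0.083 to 0.22. In astrocytes Ptch1 ran from -0.011 to 0.092, Hhip from -0.014 to 0.33, Cdon from -0.46 to 0.062 and Boc from -0.33 to 0.097. In microglia Smo ran from -0.027 to 0.18 and Sufu from -0.073 to 0.28. In the joint fit Gli2 ran from -0.92 to 0.71, Gli3 from -0.89 to 0.28, Ptch1 from -0.25 to 0.24, Smo from -0.32 to 1.72 and Boc from -1.73 to 0.96, with 281 to 887 genes and 0 to 1 members called. Genes called for genotype in microglia ran from 1 to 2 and for sex in oligodendrocytes from 3 to 5.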
